A study of Danio rerio with 4 samples.

Results

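The genes described here are the ligands and receptors of platelet-derived growth factor (PDGF) signalling. They were listed by symbol: the A ligands pdgfaa and pdgfab, the B ligands pdgfba and pdgfbb, and the receptors pdgfra and pdgfrb. The 6 symbols matched 7 of the 25432 gene identifiers in the count tables, since pdgfaa stood under both ENSDARG00000109371 and ENSDARG00000110069. Whether those identifiers are copies of 1 gene was not tested, so how reads were shared between them is uncertain, and the values of each are given. The levels were read in endothelial, endocardial-like, mesenchymal-like and blood cells of 4 single-cell RNA-seq libraries.

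The libraries came from whole zebrafish embryos at 3 dpf (days post fertilization), 2 from flt1-/- mutants (strain flt1ka604; Tg(kdrl:EGFP)zf531Tg) and 2 from WT embryos (strain Tg(kdrl:EGFP)zf531Tg). All embryos carried the kdrl:EGFP transgene, which marks endothelial cells, and GFP+ cells were sorted before the 10x Genomics 3′ protocol. The flt1ka604 allele is a small deletion in an early exon that leaves a premature stop codon, and flt1 encodes a receptor that binds Vegfa. Per the study's methods each library was made from its own pool of embryos, with 2 per genotype. Neither the labels nor the methods say whether the pools came from separate clutches or days, so the p-values below measure the spread between these pools.

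In vertebrates, PDGF ligands act as dimers on receptor tyrosine kinases. A-chain ligands bind Pdgfra, which is typical of mesenchymal cells and their precursors, and B-chain ligands bind both Pdgfra and Pdgfrb. In mouse and zebrafish, endothelial cells release PDGF-B, and pericytes and smooth muscle cells, together called mural cells, carry Pdgfrb and are recruited to the vessel wall.

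Between 1190 and 3261 cells per library were called, with 16828951 to 33837917 UMIs (unique molecular identifiers, counted transcripts) per library. Filters kept 5191 of the 7677 cells, and the median depth of kept cells was 11165 to 16940 UMIs per library. Pairs of libraries shared 0 to 4 cell barcodes. In endothelial cells, flt1 stood at 282 and 229 CPM in the flt1-/- libraries, against 322 and 195 CPM in the WT libraries (CPM is UMIs of a gene per 1000000 UMIs summed over the cells of 1 library and class). The groups overlapped (log2 fold change -0.08, SE 0.34, adjusted p = 0.998), and because 3′ tags lie outside the deleted bases this level does not check the genotype labels.

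Classes were named from marker genes, without the PDGF genes. The naming thresholds were set after the clusters and the PDGF levels had been seen, a choice that the p-values between classes do not cover. Endothelial cells made up 865 of the 5191 cells, endocardial-like cells 380, mesenchymal-like cells 107, blood cells 2588 and epithelial-like cells 1012. Pan-endothelial markers summed to 7969 to 9903 CPM in endothelial cells, 4886 to 6182 CPM in endocardial-like cells, 246 to 1136 CPM in mesenchymal-like cells and 76.0 to 149 CPM in blood cells. Mesenchymal markers summed to 7274 to 13434 CPM in mesenchymal-like cells, with 18 to 21 of the 21 list genes present in each library, against 222 to 344 CPM in endothelial cells and 1022 to 1737 CPM in endocardial-like cells.

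The mesenchymal-like cells need a caution. Their parent cluster of 184 cells was led by the cartilage genes col2a1a, matn1, epyc and col9a2, and dividing it gave 5 subclusters. Of these, 2 had mesenchymal markers and form the class used here, 1 of 45 cells had endothelial markers and was led by etv2, and 2 small ones of 17 and 15 cells stayed unnamed. Only 16 and 15 mesenchymal-like cells came from the WT libraries, against 51 and 25 from the flt1-/- libraries. They were sorted as kdrl:EGFP+ cells, yet kdrl stood at 72.7 and 59.6 CPM in the flt1-/- libraries and at 20.5 and 104 CPM in the WT libraries, against 963 and 1083 CPM (flt1-/-) and 1770 and 1133 CPM (WT) in endothelial cells.

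The ligand pdgfbb was a gene of endothelial cells. Its level there was 190 and 195 CPM in the flt1-/- libraries, and 243 and 101 CPM in the WT libraries, a mean of 182 ± 59.0 CPM (SD, n = 4). Endothelial cells held 72.9% of its 1628 UMIs. In the other named classes with sums from at least 3 libraries the mean was 11.4 CPM or less, the endothelial range lay above that of each, and neighbours in the order of their means overlapped. A further 6.82% of the UMIs lay in the other cells of the cluster from which the mesenchymal-like cells were taken, which are not a named class and were left out of that order. They held 24 UMIs in 42 cells and 23 in 11 cells (flt1-/-), and 9 in 11 cells and 55 in 13 cells (WT). The levels of those with endothelial markers overlapped the endothelial range and are given with the comparison of mesenchymal-like and endothelial cells.

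**Figure D1:**
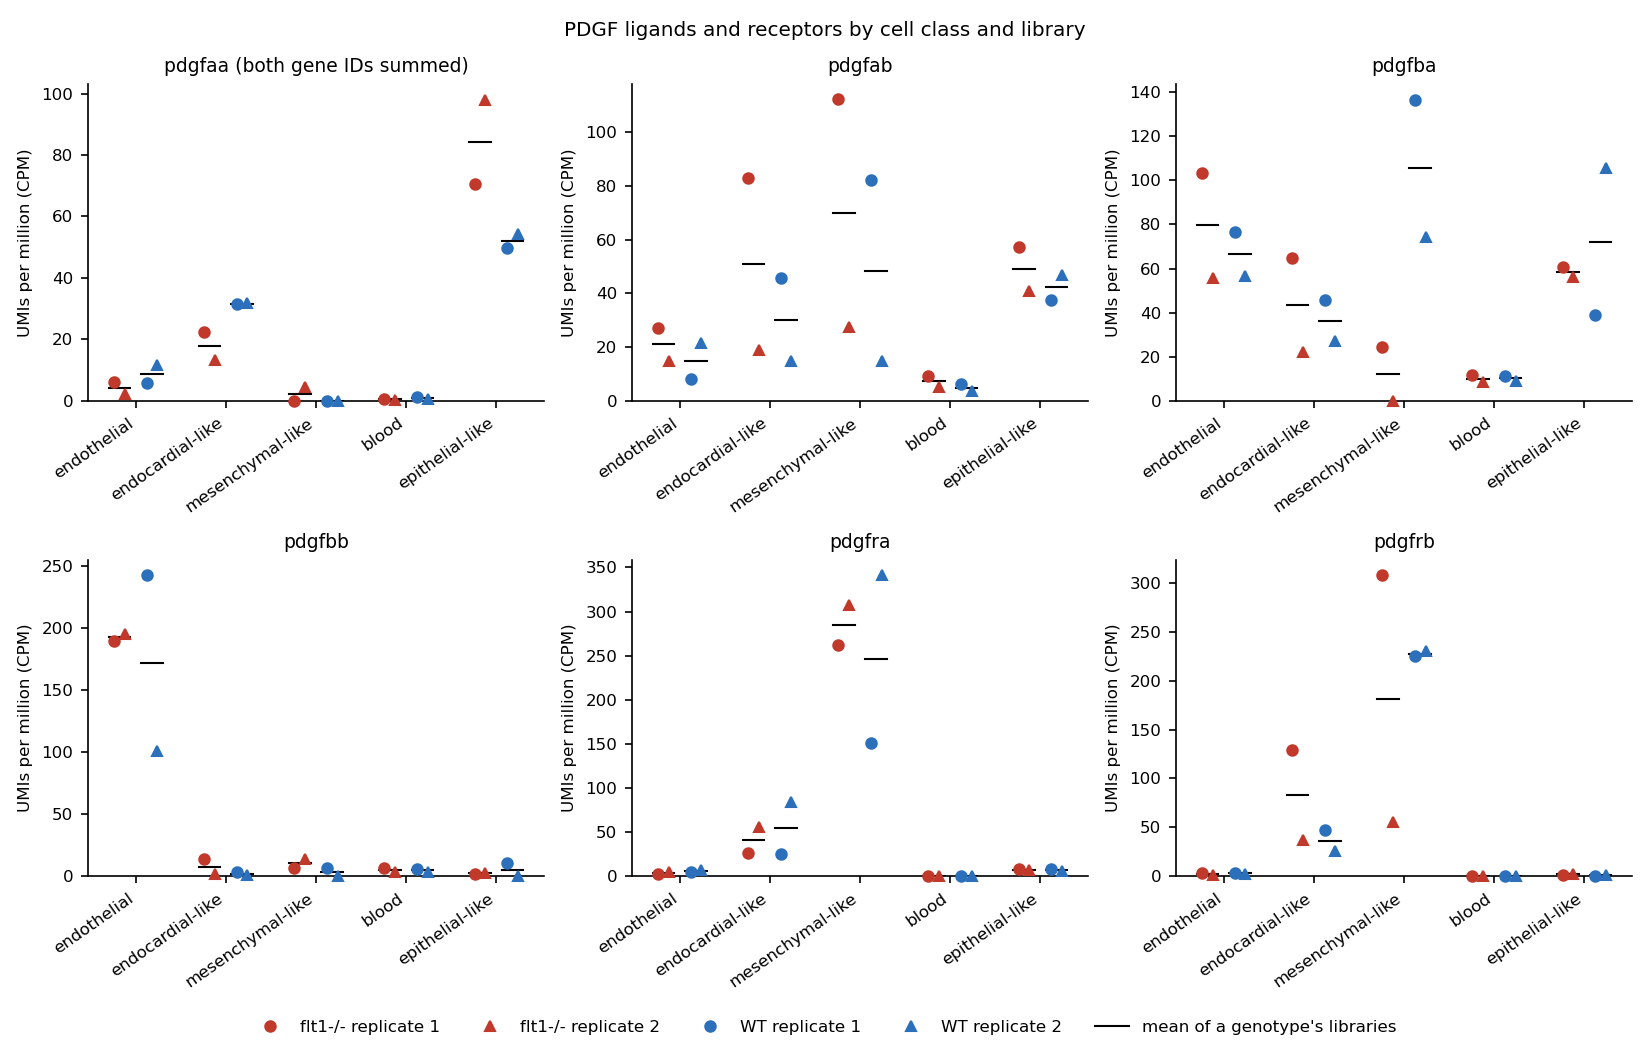
CPM of each PDGF gene (y axis, linear, own scale per panel) in 5 cell classes, 1 point per library, flt1-/- libraries in red left of WT libraries in blue; short lines are means of the 2 libraries of a genotype. The endothelial points of pdgfbb lie at 101 to 243 CPM, and the mesenchymal-like points of pdgfra at 150 to 341 CPM, above the other classes shown.

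A share of 35.8% of endothelial cells (mean of the 4 libraries) held at least 1 pdgfbb UMI, at a median depth of 7298 UMIs. Erythrocyte-like cells, set beside them as a background for free RNA, held one in 14.7% of cells (mean of the 3 libraries with at least 10 such cells) at a median depth of 18911.5 UMIs. They held 43 UMIs of pdgfbb, against 8 of pdgfba and 0 of pdgfab. Whether their pdgfbb UMIs are free RNA was not tested. With every cell thinned to 1000 UMIs the shares were 13.2% in endothelial cells and 1.03% in erythrocyte-like cells. The shares at own depth in mesenchymal-like cells (4.54%) and endocardial-like cells (1.86%) lay below that of erythrocyte-like cells, which were deeper. After thinning they were 1.59% in mesenchymal-like cells (2 of 101 cells, 0 to 4.35% per library) and 0.41% in endocardial-like cells (0 to 1.64%), overlapping the erythrocyte-like range of 0 to 3.09%. Neither share is thus told apart from that of erythrocyte-like cells, and neither is read as expression.

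Among arterial-like, venous-like and lymphatic-like cells, pdgfbb was highest in arterial-like cells. Arterial-like cells held 326 and 455 CPM in the flt1-/- libraries and 427 and 235 CPM in the WT libraries, and venous-like cells held 172 and 96.9 CPM (flt1-/-) and 166 and 27.9 CPM (WT). Every arterial-like sum lay above every venous-like sum. The venous-like value of WT replicate 2 rests on 6 UMIs in 1 of 37 cells. The difference was 1.56 on the log2 scale (SE 0.28, adjusted p = 0.0026, edgeR, quasi-likelihood, Benjamini-Hochberg, 4042 genes tested, of which 18.2% were called). Venous-like cells of flt1-/- replicate 1 were mostly from a subcluster led by cyp1c1, mrc1b and cxcl12a, and without that subcluster the difference was 1.74 (adjusted p = 0.00061). Lymphatic-like cells held 1 pdgfbb UMI in 143 cells.

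**Figure D2:**
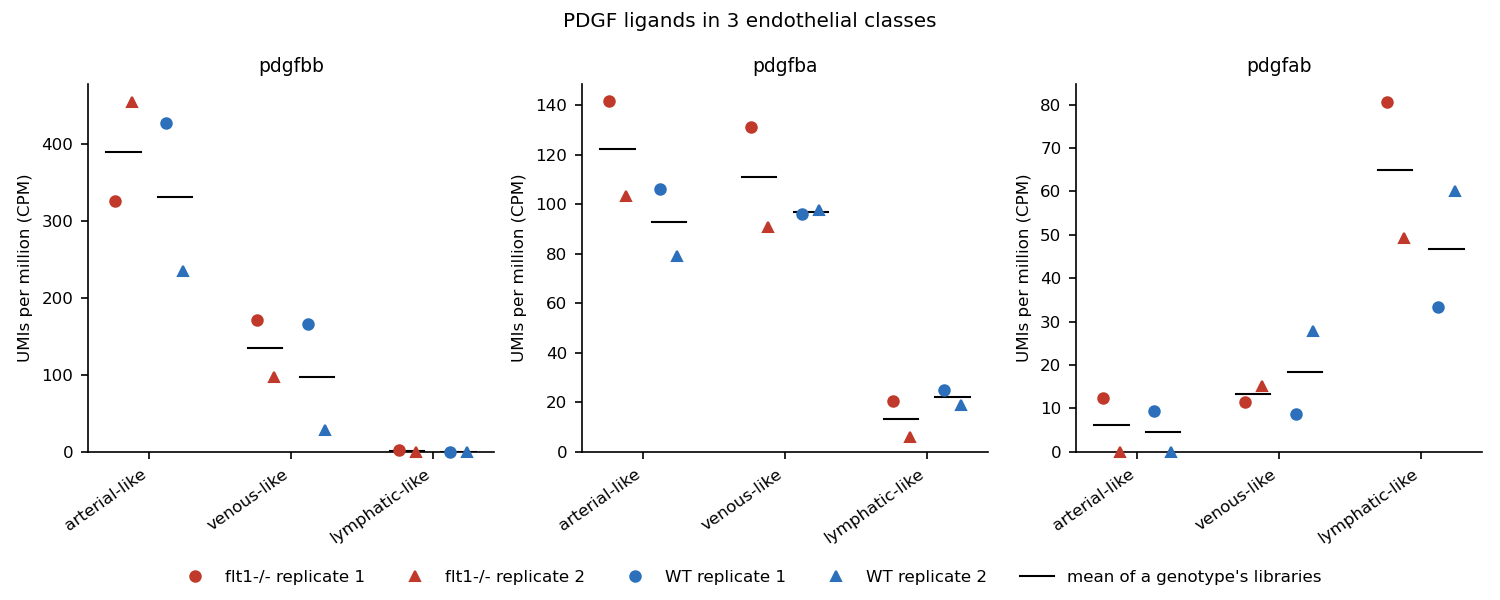
CPM of 3 PDGF ligands (y axis, linear, own scale per panel) in arterial-like, venous-like and lymphatic-like endothelial cells, 1 point per library, flt1-/- in red left of WT in blue; short lines are means of the 2 libraries of a genotype. For pdgfbb the arterial-like points (235 to 455 CPM) lie above the venous-like ones (27.9 to 172 CPM), pdgfba shows no such step, and pdgfab is highest in lymphatic-like cells (33.4 to 80.6 CPM).

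The arterial-like cells were not uniform for pdgfbb. In the subcluster led by her4 genes, nkx2.3 and plvapa, the level was 598 and 511 CPM in the flt1-/- libraries and 1139 and 454 CPM in the WT libraries. In the subcluster led by rgs5a and lhx8a it was 128 CPM in flt1-/- replicate 1, against 18.3 and 16.5 CPM in the WT libraries. These WT values lay below every venous-like sum. Every library of the her4 subcluster lay above every library of the rgs5a subcluster with at least 10 cells. Another arterial-like subcluster, with angpt2a among its leading genes, had 252 and 510 CPM in the flt1-/- libraries, and held under 10 cells in each WT library.

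An endothelial subcluster that the marker lists left unnamed, led by genes that include slc16a1a, slco1d1 and foxf2b, also held pdgfbb. It had 490 and 203 CPM in the flt1-/- libraries, and 264 and 194 CPM in the WT libraries, overlapping the range of arterial-like cells. The venous-like subcluster led by lyve1a ranged most widely, with 53.2 and 80.2 CPM (flt1-/-) against 311 and 30.3 CPM (WT). The WT value of 311 CPM rests on 29 UMIs. These subclusters were drawn from the same cells, so their levels are given as a description with no test.

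The other B ligand, pdgfba, was spread over more classes. Endothelial cells had 103 and 55.7 CPM in the flt1-/- libraries and 76.7 and 56.6 CPM in the WT libraries (73.1 ± 22.4, SD, n = 4). Endocardial-like cells had 64.9 and 22.0 CPM (flt1-/-) and 45.6 and 26.9 CPM (WT), and epithelial-like cells had 60.6 and 56.3 CPM (flt1-/-) and 38.8 and 106 CPM (WT). The ranges of neighbouring classes overlapped from endothelial down to endocardial-like cells, and then dropped to 17.0 CPM in lymphoid-like cells.

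Unlike pdgfbb, pdgfba was not detectably different between arterial-like and venous-like cells. It had 142 and 103 CPM in arterial-like cells of the flt1-/- libraries and 106 and 79.3 CPM in those of the WT libraries. Venous-like cells had 131 and 90.8 CPM (flt1-/-) and 96.0 and 97.7 CPM (WT), and the groups overlapped. The log2 difference was -0.08 (SE 0.20, adjusted p = 0.82). Lymphatic-like cells were low, at 20.7 and 5.80 CPM (flt1-/-) and 25.0 and 18.9 CPM (WT).

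In mesenchymal-like cells, pdgfba rested on very few cells. Its level was 24.2 and 0 CPM in the flt1-/- libraries, and 137 and 74.2 CPM in the WT libraries. All 20 UMIs in WT replicate 1 came from 1 of 16 cells, and 9 of the 10 UMIs in WT replicate 2 from 1 of 15 cells. The WT libraries lay above the flt1-/- libraries, but the level is that of 2 cells.

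The A ligand pdgfab was higher in endocardial-like and mesenchymal-like than in endothelial cells in the flt1-/- libraries and WT replicate 1. In WT replicate 2 it was lower in them. Mesenchymal-like cells had 112 and 27.5 CPM in the flt1-/- libraries and 82.0 and 14.8 CPM in the WT libraries. Endocardial-like cells had 82.8 and 19.0 CPM (flt1-/-) and 45.6 and 14.7 CPM (WT), and endothelial cells had 27.1 and 14.8 CPM (flt1-/-) and 8.01 and 21.5 CPM (WT). Replicate 1 of each genotype was the higher one in mesenchymal-like and endocardial-like cells, and the 3 classes overlapped in range. Of the mesenchymal-like UMIs, 1 cell held 9 of 51 in flt1-/- replicate 1 and 4 of 6 in flt1-/- replicate 2. In WT replicate 1 it was 7 of 12, and WT replicate 2 had 2 UMIs.

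Among endothelial cells, pdgfab was a gene of the lymphatic-like subcluster, led by genes that include tbx1 and cdh6. It had 80.6 and 49.3 CPM in the flt1-/- libraries and 33.4 and 60.0 CPM in the WT libraries. Arterial-like cells had 12.4 and 0 CPM (flt1-/-) and 9.35 and 0 CPM (WT), and venous-like cells had 11.5 and 15.1 CPM (flt1-/-) and 8.73 and 27.9 CPM (WT). Every lymphatic-like sum lay above every arterial-like and venous-like sum. The lowest lymphatic-like value, in WT replicate 1, rests on 4 UMIs in 4 of 13 cells. The highest venous-like value, in WT replicate 2, rests on 6 UMIs in 1 of 37 cells. The order was the reverse of that of pdgfbb, which was at 0 to 2.07 CPM in lymphatic-like cells.

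Most UMIs of each pdgfaa identifier lay outside the vessel and mesenchymal classes. Epithelial-like cells held 65.2% of the 270 UMIs of ENSDARG00000109371 and 87.0% of the 682 UMIs of ENSDARG00000110069. In those cells ENSDARG00000110069 had 56.4 and 80.4 CPM in the flt1-/- libraries and 34.3 and 16.6 CPM in the WT libraries, whereas ENSDARG00000109371 had 14.2 and 17.7 CPM (flt1-/-) and 15.5 and 37.7 CPM (WT). For ENSDARG00000110069 both flt1-/- libraries lay above both WT libraries, for ENSDARG00000109371 the groups overlapped, and neither difference was tested in this class. An epithelial-like cluster of 190 cells, with ENSDARG00000110069 at 50.7 to 88.8 CPM, had at least 10 cells only in the flt1-/- libraries. Its part in the levels of the whole class was not tested. Over all called cells, WT replicate 2 held 123 UMIs of ENSDARG00000109371 and 34 of ENSDARG00000110069. In the other libraries ENSDARG00000110069 had more, with 108 and 429 (flt1-/- replicate 1), 60 and 265 (flt1-/- replicate 2) and 55 and 108 (WT replicate 1). The part of this split in the levels of each identifier was not tested. The summed level of both was 70.6 and 98.1 CPM in the flt1-/- libraries, against 49.8 and 54.3 CPM in the WT libraries.

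In endocardial-like cells pdgfaa was also present. ENSDARG00000109371 stood at 8.95 and 0 CPM (flt1-/-) against 17.3 and 26.9 CPM (WT), overlapping the epithelial-like range. ENSDARG00000110069 stood at 13.4 and 13.2 CPM (flt1-/-) against 14.2 and 4.89 CPM (WT), below every epithelial-like sum. In mesenchymal-like cells 1 UMI of ENSDARG00000109371 and no UMI of ENSDARG00000110069 was counted. Both identifiers missed the filter on low counts in every comparison between classes.

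The receptor pdgfra marked mesenchymal-like cells. It stood at 262 and 307 CPM in the flt1-/- libraries, and at 150 and 341 CPM in the WT libraries (265 ± 83.2, SD, n = 4). Endocardial-like cells followed with 25.7 and 55.7 CPM (flt1-/-) and 25.2 and 84.0 CPM (WT), and epithelial-like cells with a mean of 6.98 CPM. Mesenchymal-like, endocardial-like and epithelial-like cells did not overlap in range, while epithelial-like cells and endothelial cells (1.97 and 4.60 CPM in flt1-/-, 4.58 and 7.32 CPM in WT) did.

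Mesenchymal-like cells with at least 1 pdgfra UMI made up 58.0% (mean of 4 libraries, median depth 7846 UMIs), and 30.1% after thinning to 1000 UMIs. In erythrocyte-like cells the gene was seen in 1 of 182 cells at own depth. No pdgfra UMI was counted in 218 arterial-like cells, which allows a share of up to 1.38% of cells with a UMI. Venous-like cells had 18 UMIs, at 4.91 and 24.2 CPM in the flt1-/- libraries (3 and 8 UMIs) and 13.1 and 18.6 CPM in the WT libraries (3 and 4 UMIs). Pooled over libraries, this was 7.68-fold the level that 3 UMIs over all arterial-like cells would give, a ratio without the counting error of the venous-like UMIs. The gene missed the filter on low counts in arterial-like against venous-like cells, so the difference was not tested.

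The receptor pdgfrb, the usual marker of mural cells, shared the classes of pdgfra but varied more between libraries. Mesenchymal-like cells had 308 and 55.0 CPM in the flt1-/- libraries and 226 and 230 CPM in the WT libraries (205 ± 107, SD, n = 4). Endocardial-like cells had 129 and 36.6 CPM (flt1-/-) and 47.2 and 25.3 CPM (WT), overlapping the mesenchymal-like range through flt1-/- replicate 2. Endothelial cells had 3.45 and 1.02 CPM (flt1-/-) and 3.43 and 2.44 CPM (WT), below every endocardial-like sum.

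Blood cells were at the floor for both receptors. Across 2588 blood cells, pdgfra stood at 0.28 to 0.45 CPM and pdgfrb at 0.22 to 0.64 CPM. No erythrocyte-like cell of 182 held a pdgfrb UMI, so that a share of up to 1.65% is allowed. In mesenchymal-like cells the share with a pdgfrb UMI was 55.9% at own depth and 27.4% after thinning to 1000 UMIs, and in endocardial-like cells 23.3% and 6.24%. After thinning, no mesenchymal-like cell of flt1-/- replicate 2 held a pdgfrb UMI.

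Within the endocardial-like cells, the receptors were divided between subclusters. In the subcluster led by irx5a and hapln1b, pdgfra had 83.6 CPM in flt1-/- replicate 2 and 95.5 and 101 CPM in the WT libraries, whereas pdgfrb there had 11.1 CPM (flt1-/- replicate 2) and 9.55 and 7.50 CPM (WT). In the subcluster whose leading genes include spp1 and alcama, pdgfrb had 135 and 84.3 CPM in the flt1-/- libraries and 59.7 and 59.5 CPM in the WT libraries, and pdgfra had 16.2 and 10.5 CPM (flt1-/-) and 2.98 and 51.8 CPM (WT). In the subcluster led by cyp1b1, pdgfrb had 92.0 and 29.7 CPM (flt1-/-) and 37.4 and 20.5 CPM (WT), beside 29.3 and 35.6 CPM (flt1-/-) and 32.1 and 20.5 CPM (WT) of pdgfra. The pdgfra range of the irx5a subcluster overlapped neither of the others, and its pdgfrb range lay below both.

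The endocardial-like subclusters also took different shares of each library. The irx5a subcluster had 1 and 44 cells in the flt1-/- libraries, and 15 and 75 cells in the WT libraries. The library flt1-/- replicate 1, with 1 such cell, had the highest pdgfrb level of the class, and it was also the highest library within the spp1 subcluster (135 CPM) and the cyp1b1 subcluster (92.0 CPM). The part of the shares in the levels of the whole class was not tested.

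**Figure D3:**
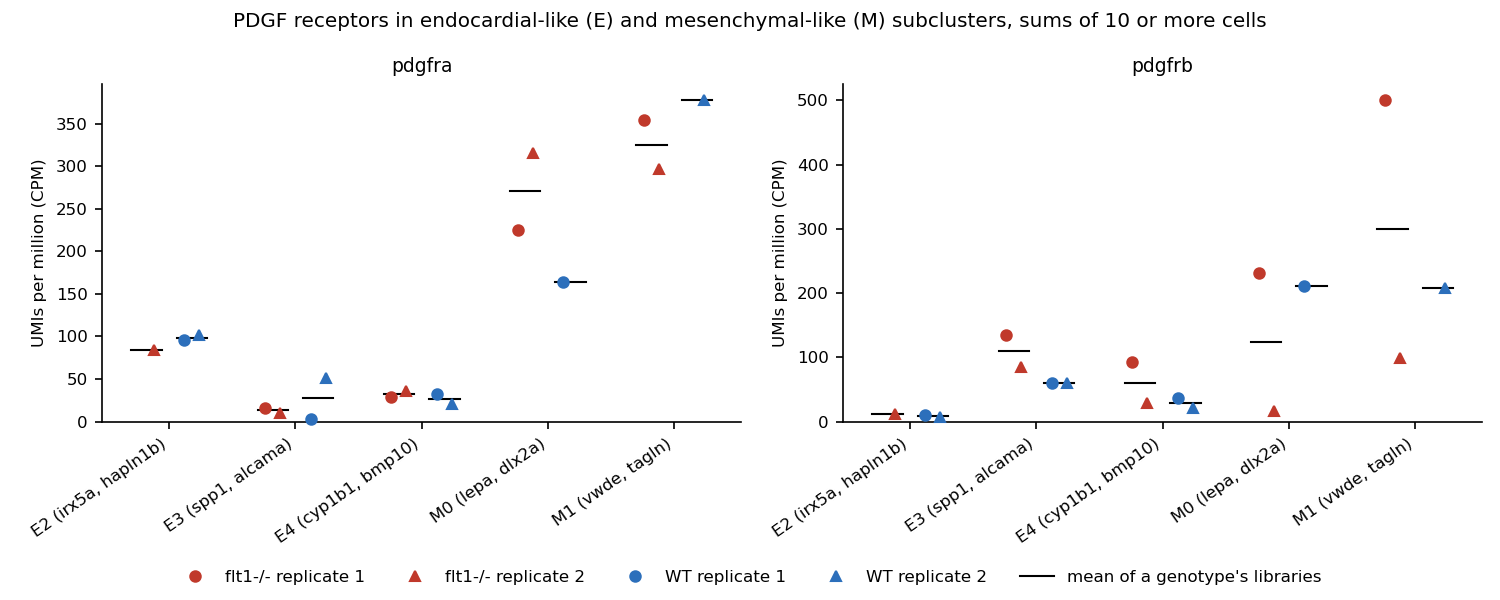
CPM of pdgfra (left) and pdgfrb (right) in 3 endocardial-like subclusters (E2 to E4) and 2 mesenchymal-like subclusters (M0, M1), each with leading genes, 1 point per library with at least 10 cells, flt1-/- in red left of WT in blue; short lines are means over the libraries of a genotype. In E2 pdgfra lies at 83.6 to 101 CPM and pdgfrb at 7.50 to 11.1 CPM, and in E3 pdgfrb lies at 59.5 to 135 CPM.

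The mesenchymal-like subclusters both held pdgfra. The one led by lepa and dlx2a had 225 and 316 CPM in the flt1-/- libraries and 164 CPM in WT replicate 1, and the one led by vwde, tagln and loxa had 354 and 297 CPM in the flt1-/- libraries and 377 CPM in WT replicate 2. For pdgfrb the values were 231 and 17.1 CPM (flt1-/-) and 211 CPM (WT replicate 1) in the lepa subcluster, and 500 and 99.0 CPM (flt1-/-) and 208 CPM (WT replicate 2) in the vwde subcluster. In both subclusters flt1-/- replicate 2 had the lowest pdgfrb level.

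Both receptors were often found in the same mesenchymal-like cell, about as often as their separate shares would give. Of 107 cells, 36 held a UMI of both, 25 of pdgfra alone, 27 of pdgfrb alone and 19 of neither, and independence of the shares would put 35.9 cells in the first set (7 cells against 7.75 after thinning to 1000 UMIs). Cells with both numbered 20 of 51 and 3 of 25 in the flt1-/- libraries, against 4 of 16 and 9 of 15 in the WT libraries. Of 380 endocardial-like cells, 20 held both, 69 pdgfra alone and 72 pdgfrb alone, with 21.5 given by independence. By library the endocardial-like cells with both were 10 and 3 (flt1-/-) and 0 and 7 (WT), where independence would give 6.80 and 3.59 (flt1-/-) and 2.50 and 3.94 (WT). Depth differs between cells and was not balanced in the counts at own depth.

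In endothelial cells 136 of 865 held a UMI of both pdgfba and pdgfbb, where independence of their shares would give 102. By library the cells with both were 57 and 39 in the flt1-/- libraries (43.3 and 25.0 by independence) and 15 and 25 in the WT libraries (16.0 and 18.3), so WT replicate 1 lay below its value. After thinning to 1000 UMIs, 15 of 813 cells held both, against 8.10 by independence, with 7 and 6 (flt1-/-) and 2 and 0 (WT) by library.

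The comparisons between classes used UMIs summed per library and class, with the library as a block. Of the 7 identifiers, 5 passed the filter on low counts in mesenchymal-like against endothelial cells. Of all 5730 genes tested there, 28.0% were called at an adjusted p under 0.05 (14.2% higher and 13.8% lower). Endothelial cells had 4 to 15 pdgfra and 2 to 7 pdgfrb UMIs a library, and mesenchymal-like cells at most 3 of pdgfbb. Each of these genes passed the filter through the class where it is high, so no count of PDGF genes is set against that share. The receptors were higher, pdgfra by 6.11 on the log2 scale (SE 0.35, adjusted p = 7.0e-09) and pdgfrb by 6.46 (SE 0.33, adjusted p = 3.3e-09), and pdgfab was higher by 1.88 (SE 0.47, adjusted p = 0.0070). The ligand pdgfbb was lower, with a log2 fold change of -4.40 (SE 0.41, adjusted p = 1.4e-06), and pdgfba did not pass (-0.52, SE 0.53, adjusted p = 0.53). All p-values between classes and genotypes come from the quasi-likelihood fit in edgeR and were adjusted by Benjamini-Hochberg.

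In that comparison, the call for pdgfab was lost without flt1-/- replicate 1 (log2 fold change 1.57, adjusted p = 0.11) and with finer clustering, at resolution 1 and 1.5 (0.87, adjusted p = 0.42). That for pdgfbb was lost when the parent cluster was kept undivided (-1.21, adjusted p = 0.072), which adds the 45 cells with endothelial markers and the small unnamed subclusters. The 45 cells with endothelial markers had 110 and 175 CPM of pdgfbb in the flt1-/- libraries and 415 CPM in WT replicate 2. Which of the added cells changed the call was not tested.

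**Figure D4:**
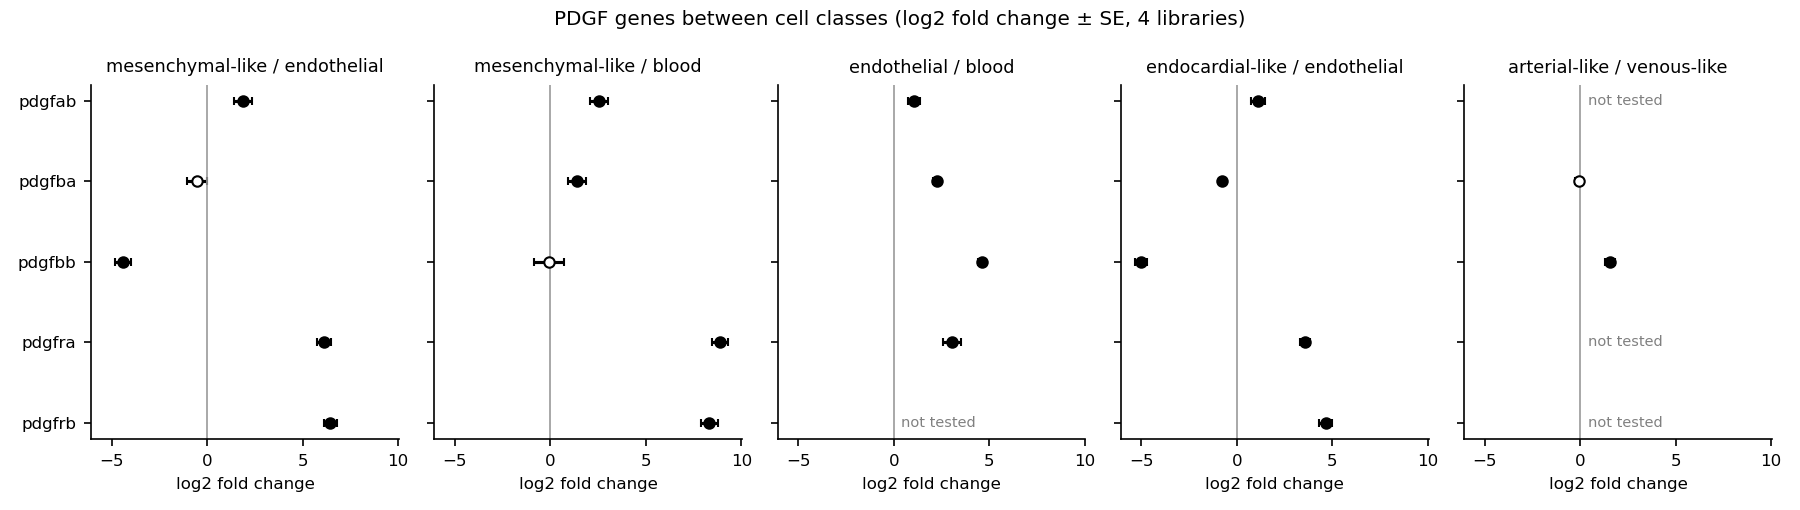
Log2 fold change (x axis, points, with bars of 1 SE, n = 4 libraries) of 5 PDGF genes in 5 comparisons between classes; filled points had an adjusted p under 0.05 (edgeR quasi-likelihood test), open points did not, and both pdgfaa identifiers missed the filter throughout. The receptors are higher in mesenchymal-like than in endothelial cells (6.11 for pdgfra and 6.46 for pdgfrb), and pdgfbb is lower in mesenchymal-like and endocardial-like than in endothelial cells (-4.40 and -5.03).

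Endocardial-like cells differed from endothelial cells in the same 5 genes that could be tested. Of all 6976 genes tested, 31.1% were called (15.8% higher and 15.3% lower). The receptors had at most 15 UMIs a library in endothelial cells, and pdgfbb at most 12 in endocardial-like cells. These genes passed the filter through the class where they are high, so the count is not set against that share. The receptors were higher, pdgfra by 3.55 (SE 0.27, adjusted p = 7.3e-08) and pdgfrb by 4.65 (SE 0.33, adjusted p = 3.4e-08), and pdgfab by 1.1 (SE 0.35, adjusted p = 0.026) in edgeR's test. Both B ligands were lower, pdgfbb with a log2 fold change of -5.03 (SE 0.32, adjusted p = 1.0e-08) and pdgfba with -0.77 (SE 0.18, adjusted p = 0.0034). The pdgfab call was lost without flt1-/- replicate 1 (0.71, adjusted p = 0.24), without WT replicate 1 (0.80, adjusted p = 0.12) and with DESeq2 (adjusted p = 0.083). In endocardial-like cells pdgfbb rested on 12 and 1 UMIs in the flt1-/- libraries and 2 and 1 UMIs in the WT libraries.

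Against blood cells, endothelial cells were higher in the 4 PDGF genes that passed the filter on low counts, which pdgfrb and both pdgfaa identifiers missed. In this comparison 66.9% of 11377 genes were called and 31.3% were higher. Blood cells had 3 to 7 pdgfra UMIs a library, so pdgfra passed the filter through the endothelial sums. The count is therefore not set against the share over all genes. The log2 fold changes were 4.63 for pdgfbb (SE 0.21, adjusted p = 3.3e-08), 2.26 for pdgfba (SE 0.18, adjusted p = 1.4e-06), 3.06 for pdgfra (SE 0.47, adjusted p = 0.00021) and 1.05 for pdgfab (SE 0.32, adjusted p = 0.014), all from edgeR's test. The call for pdgfab was lost without WT replicate 2 (0.70, adjusted p = 0.082). For pdgfra the level behind the call was 1.97 to 7.32 CPM in endothelial cells, from 4 to 15 UMIs a library.

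Mesenchymal-like cells were higher than blood cells in 4 of 5 genes tested (47.7% of 10414 genes called, 18.6% higher). Both receptors had at most 10 UMIs a library in blood cells and passed the filter through the mesenchymal-like sums. This count too is not set against the share over all genes. The log2 fold changes were 8.89 for pdgfra (SE 0.41), 8.32 for pdgfrb (SE 0.43), 2.54 for pdgfab (SE 0.46, adjusted p = 6.0e-07) and 1.41 for pdgfba (SE 0.47, adjusted p = 0.0085) in edgeR's test. The p-values of this comparison rest on a prior of 190 degrees of freedom shared over genes, beside 3 residual degrees of freedom. The SE was derived from the same test, so it rests on that prior as well. The pdgfba call was lost without WT replicate 1 (0.94) and without WT replicate 2 (1.11), whose UMIs came mostly from 1 cell each, and also with DESeq2 (1.34, adjusted p = 0.12). With finer clustering the calls of pdgfba (0.58, adjusted p = 0.58) and pdgfab (1.46, adjusted p = 0.12) were lost. The log2 fold change of pdgfbb was -0.07 (SE 0.78, adjusted p = 0.95).

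Between the genotypes, no PDGF gene was called in any class. In endothelial cells 0% of 9100 genes were called by edgeR (363 had an unadjusted p under 0.05, and DESeq2 called 3). The log2 fold change in flt1-/- against WT libraries was 0.08 for pdgfbb (95% interval -0.90 to 1.07), 0.22 for pdgfba (-0.69 to 1.13) and 0.38 for pdgfab (-0.81 to 1.57). The groups overlapped for each of these ligands, and the intervals leave room for changes of nearly 1 on the log2 scale in either direction for pdgfbb. On simulated counts of this comparison, 0 of 194 genes changed by 1 on the log2 scale were recovered (8747 genes run), and 150 of 197 changed by 2 (8727 genes run).

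In endocardial-like cells 0% of 5974 genes were called (276 at an unadjusted p under 0.05, 6 by DESeq2). The log2 fold change was 1.2 for pdgfrb (95% interval -0.31 to 2.71, adjusted p = 0.99), -0.54 for pdgfra (-1.87 to 0.78) and 0.82 for pdgfab (-1.05 to 2.68) in edgeR's test. Without flt1-/- replicate 2, pdgfrb was 1.83 with an adjusted p of 0.048, which sets flt1-/- replicate 1 at 129 CPM against 47.2 and 25.3 CPM in the WT libraries. For pdgfaa under ENSDARG00000109371 both flt1-/- libraries lay below both WT libraries, with a log2 fold change of -2.20 (SE 0.87, adjusted p = 0.99 in edgeR's test). Under ENSDARG00000110069 it was 0.55 (SE 0.68), in the other direction, and the groups overlapped. As given above, the split of UMIs between the identifiers was reversed in WT replicate 2. The summed level of both was 22.4 and 13.2 CPM (flt1-/-) against 31.5 and 31.8 CPM (WT), and the sum was not tested.

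In mesenchymal-like cells 0% of 2369 genes were called (90 at an unadjusted p under 0.05, 0 by DESeq2). The receptors had log2 fold changes of 0.18 for pdgfra (95% interval -0.94 to 1.3) and -0.35 for pdgfrb (-2.20 to 1.5). The ligand pdgfba had -2.89 (-5.32 to -0.47, adjusted p = 0.998 in edgeR's test), and passed without flt1-/- replicate 1 (-7.23, adjusted p = 0.015) and without WT replicate 2 (-3.36, adjusted p = 0.026). The WT level rests on 2 cells, as given above. On simulated counts of this comparison, 1 of 179 genes changed by 1 on the log2 scale was recovered (2091 genes run), and 30 of 184 changed by 2 (2113 genes run).

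In blood cells 0.0163% of 12295 genes were called, none of them a PDGF gene (901 at an unadjusted p under 0.05, 104 calls by DESeq2). The log2 fold changes were 0.47 for pdgfab (95% interval -0.61 to 1.55), -0.11 for pdgfba (-0.84 to 0.62) and 0.04 for pdgfbb (-1.13 to 1.22). Whether the genotype difference itself differed between mesenchymal-like and endothelial cells was tested as an interaction over 5730 genes, of which 0% were called (228 at an unadjusted p under 0.05, 0 by DESeq2). For pdgfba the interaction was -3.13 (SE 0.77, adjusted p = 0.75), again with the WT level of 2 mesenchymal-like cells in it.

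**Figure D5:**
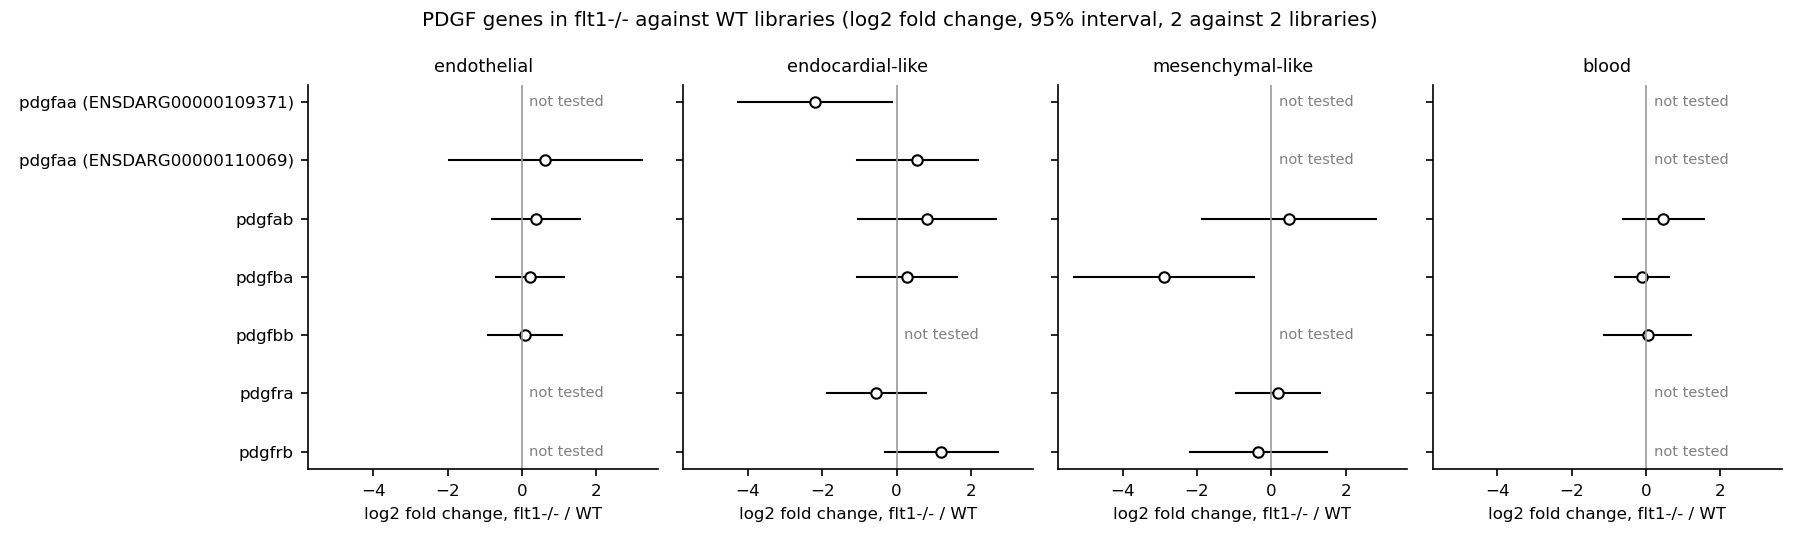
Log2 fold change in flt1-/- against WT libraries (x axis, open points, lines are 95% intervals, 2 libraries against 2) of the 7 PDGF identifiers in 4 cell classes. None had an adjusted p under 0.05; pdgfbb in endothelial cells lies at 0.08 (-0.90 to 1.07), and pdgfba in mesenchymal-like cells at -2.89 (-5.32 to -0.47).

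Of 67 other genes of the PDGF pathway (other ligands, co-receptors, proteases that process ligands, and signalling proteins below the receptors), 65 were in the files. In mesenchymal-like against endothelial cells 39 were tested, of which 7 were higher and 6 lower, with a median log2 fold change of -0.03, against -0.04 over all genes tested. Over all genes 28.0% were called. The ligand pdgfd, scarce in mesenchymal-like cells, passed the filter through the endothelial sums, so the counts are not set against that share. Higher members included lrp1aa (7.87, SE 0.55), an endocytic receptor gene of the LRP1 family, whose mouse relative binds Pdgfrb, and lrp1ab (5.61, SE 0.64). The receptor-like gene pdgfrl had 90.3 and 160 CPM in the flt1-/- libraries and 68.4 and 134 CPM in the WT libraries in mesenchymal-like cells, against no UMI in endothelial cells. Pooled over libraries, its mesenchymal-like level was 251-fold that of 3 UMIs over all endothelial cells.

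The ligand pdgfd, whose mammalian product binds Pdgfrb, ran with pdgfbb in being endothelial. It had 56.7 and 42.9 CPM in the flt1-/- libraries and 34.3 and 32.2 CPM in the WT libraries in endothelial cells. In mesenchymal-like cells it had 2.20 and 4.59 CPM (flt1-/-) and 0 and 0 CPM (WT), and in endocardial-like cells 2.24 and 0 CPM (flt1-/-) and 3.15 and 0 CPM (WT). No endothelial sum overlapped either. The log2 fold change was -4.15 (SE 0.66, adjusted p = 0.00020) in mesenchymal-like and -4.89 (SE 0.47) in endocardial-like against endothelial cells, and ptpn11b, a phosphatase gene, had -3.31 (SE 0.78, adjusted p = 0.0047) in mesenchymal-like cells, in edgeR's test.

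The ligand pdgfc was low. Mesenchymal-like cells had 17.6 and 22.9 CPM in the flt1-/- libraries and 6.84 and 7.42 CPM in the WT libraries, which were 1 to 8 UMIs a library. Blood cells had at most 0.22 CPM, and the log2 fold change in mesenchymal-like against blood cells was 6.04. The largest others there were plcg2 (-10.73), pdgfrl (9.47), lrp1aa (8.45) and the phosphatase gene ptprja (-7.66). In that comparison 24 of 54 tested pathway genes were higher and 7 lower. The median was 0.87, against -0.60 over all genes, of which 18.6% were higher and 29.1% lower. Members scarce in blood, such as pdgfc, passed the filter through the mesenchymal-like sums, so the count is not set against these shares.

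In endothelial against blood cells 34 of 51 tested pathway genes were higher and 8 lower. The median was 1.43, against -0.13 over all genes, of which 31.3% were higher and 35.7% lower. Genes scarce in blood can pass the filter only through the endothelial sums, so this count too is not set against the shares. The largest were nrp1b (6.07), a neuropilin co-receptor gene, the adaptor grb2a (5.57), shc2 (-5.55), ptprja (-5.04) and the immediate early gene egr1 (4.75). In endocardial-like against endothelial cells 6 of 40 were higher and 7 lower, where 15.8% and 15.3% of all genes were. Since pdgfd, scarce in endocardial-like cells, passed the filter through the endothelial sums, this count is not set against these shares either. After pdgfd, the largest changes were src at 1.37, ptpn11b at -1.22, pik3cb at -1.12 and plcg1 at -1.05. In arterial-like against venous-like cells 1 of 27 was higher, nrp1a (1.05), and 4 were lower, among them egr1 (-2.60), fosab (-1.94) and mycb (-1.81), where 283 of the 4042 genes tested were higher and 454 lower. None of the list was called between genotypes in any class.

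Genes known from mural cells were set beside pdgfrb, 21 of 23 of them present in the files. In mesenchymal-like against endothelial cells 11 were tested, of which 7 were higher and 1 lower. The median was 1.96, against -0.04 over all genes (14.2% higher and 13.8% lower). One of them, tagln, was nearly absent from endothelial cells and passed the filter through the mesenchymal-like sums. The count is thus not set against these shares. The receptor gene notch3 had 416 and 271 CPM in the flt1-/- libraries and 390 and 475 CPM in the WT libraries in mesenchymal-like cells, against 13.8 and 11.7 CPM (flt1-/-) and 16.0 and 9.77 CPM (WT) in endothelial cells (5.13, SE 0.27). Also higher were notch2 (4.30), rgs5a (3.85), myh11a (3.46), foxc1b (1.96) and foxf2a (1.91), and rgs5b was lower (-3.06). Few cells held rgs5a and myh11a. In the vwde subcluster of 46 cells, rgs5a had 125 UMIs in 12 cells and myh11a 127 UMIs in 9. In the lepa subcluster of 61 cells they had 24 UMIs in 9 cells and 22 UMIs in 5. Mesenchymal-like cells of WT replicate 1 held 2 UMIs of rgs5a and no UMI of myh11a. The others tested were foxf2b (1.42, adjusted p = 0.057 in edgeR's test), foxc1a (-0.48) and epas1a (-1.55). The list genes that missed the filter beside acta2 were low in mesenchymal-like cells, with 39 UMIs of the pericyte proteoglycan gene cspg4 in 25 cells, 31 of kcne4 in 6, 26 of lamc3 in 18, at most 7 each of ndufa4l2a, cnn1b, abcc9, tbx18 and kcnj8, and none of heyl.

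The contractile genes tagln and acta2 differed widely between libraries. In mesenchymal-like cells tagln had 1740 and 50.4 CPM in the flt1-/- libraries and 34.2 and 327 CPM in the WT libraries, against 1 UMI in all endothelial cells (11.35, SE 0.51). The smooth muscle actin acta2 had 989 and 523 CPM (flt1-/-) and 0 and 579 CPM (WT) and missed the filter. In all, acta2 was seen in 3 of 61 cells of the lepa subcluster and in 9 of 46 of the vwde subcluster, and tagln in 5 and 18. In the whole class 63 of 107 cells held a pdgfrb UMI. At these depths a cell with no UMI is not shown to lack the transcript.

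Against blood cells, which held no UMI of cspg4, 11 of 13 tested mural genes were higher in mesenchymal-like cells and 1 lower. Of all genes, 18.6% were higher and 29.1% lower. In endothelial cells 7 of 10 were higher than in blood cells and 2 lower, where 31.3% of all genes were higher and 35.7% lower. A list gene scarce in blood can pass the filter on low counts only through the other class. Neither count is therefore set against the share over all genes. Endocardial-like cells held notch3 (2.82), notch2 (2.89) and foxc1b (3.30) above endothelial cells, and foxf2a (-4.02), foxf2b (-3.78), rgs5b (-3.34) and epas1a (-5.74) below them, with 2 of 9 tested genes not called. Over all genes 31.1% were called. List genes scarce in endocardial-like cells can pass the filter only through the endothelial sums, so this count too is not set against that share. In arterial-like against venous-like cells epas1a was higher (1.94) and foxc1a lower (-2.14), of 5 tested, where 18.2% of all genes were called. The mural genes that were higher in mesenchymal-like cells and in endocardial-like cells were thus those of the Notch receptors and foxc1b.

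Mesenchymal-like cells were also divided by whether they held a pdgfrb UMI. Cells with one numbered 38 and 5 in the flt1-/- libraries and 10 and 10 in the WT libraries, beside 13 and 20 (flt1-/-) and 6 and 5 (WT) without. With sums of at least 10 cells, 1 library remained and no test was possible. With at least 5 cells, a limit chosen after the counts were seen, 0% of 880 genes were called. Of the 6 mural genes tested, tagln had 3.41 (SE 1.21, adjusted p = 0.22), acta2 2.42 (SE 2.03, adjusted p = 0.67) and notch3 0.80 (SE 0.36, adjusted p = 0.36) in edgeR's test. The others were notch2 at 0.0061 (SE 0.27), foxc1b at -0.75 (SE 0.43, adjusted p = 0.50) and foxf2a at -1.02 (SE 0.32, adjusted p = 0.18) in the same test. The median depth of cells with a pdgfrb UMI was 7833 and 10145 UMIs in the flt1-/- libraries, against 6342 and 7882 UMIs in cells without, and 4654 and 7545.5 UMIs in the WT libraries, against 10445.5 and 10956 UMIs without. After thinning to 1000 UMIs too few sums remained.

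Patterns were compared over 43 sums of a library and a class, as Pearson's r of log2(CPM + 10), given as a description, since the sums of a library share depth and sort. The genes most like pdgfra were col5a1 (r = 0.94), fbn2b (0.92) and pcolcea (0.92), of which col5a1 and pcolcea were used to name the mesenchymal-like class. Those most like pdgfrb were pdgfra (0.91), col5a1 (0.91) and tmem119b (0.90), and those most like pdgfbb were zgc:112332 (0.92), notchl (0.92) and myo1hb (0.91). For pdgfba they were arid3c (0.88), tgfbr2b (0.81) and tbx1 (0.81), and for pdgfab zgc:77158, hmga2 and epha2a (0.85 to 0.86). For pdgfaa they were lama5, mapk12a and zgc:92380 (0.81 to 0.82) under ENSDARG00000110069, and map2k1, irg1l and nrg2a (0.78 to 0.81) under ENSDARG00000109371.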

How the data were processed

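The deposited files hold whole-number UMI counts per gene and cell, which the authors made with Cell Ranger 6.1.1 on GRCz11. The chemistry version differs between the labels and the methods, and no sequences or coordinates were used here. Cells with over 200 and under 4500 genes and under 5% mitochondrial counts were kept. Seurat 5.3.0 (R 4.3.3) clustered all libraries together without integration (2000 variable genes less 3 PDGF genes, 20 principal components, resolution 0.5, and 1 for subclusters). Clusters were named from marker lists without PDGF genes: at least 3 markers at 2 times the other cells (1.5 times for subclusters) in at least 10% of cells. Those thresholds were set after the clusters and the levels of the PDGF genes had been seen, and members and lists were chosen with earlier results of these data known. Doublet calls were not used, because scrublet (scanpy 1.11.5) found only 27. It was run on the cells with over 200 genes and under 5% mitochondrial counts. The 5% of cells with the highest scores were left out in 1 alternative.

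Counts were summed per library and class (at least 10 cells), scaled by TMM after filterByExpr, and compared by the quasi-likelihood F-test in edgeR 4.0.16, two-sided (DESeq2 1.42.0 as an alternative), with Benjamini-Hochberg adjustment over all genes tested and a threshold of 0.05. Library was a block between classes, and genotype was the sole term between genotypes. The SE was derived as the size of the log2 fold change over the root of F, and CPM values are not TMM-scaled. The tests were tried on simulated counts. A count of 0 allows a level of 3 counts, and limits of shares cover counting error alone. Named were all PDGF genes, in each comparison the 5 pathway genes with the largest changes past the threshold, the mural genes measured, and the 3 genes most like each PDGF gene among those with at least 100 UMIs. A pathway gene that the rule named is not reported here.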

Additional observations from a re-analysis of the deposited data

How the results depend on the processing

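Of 189 alternatives for PDGF genes called between classes, 177 kept the call, 12 lost it and 0 changed direction. Of those for genes not called, 183 stayed so, 37 changed sign, 1 of them past the threshold, and 3 became called in the same direction. The mesenchymal-like results rest on 107 cells, and the cause of each change below was not tested.

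With no filter on low counts 2458 genes were called in mesenchymal-like against endothelial cells (1604 in the reported test), and the PDGF identifiers called higher were 7 of endothelial against blood cells and 5 of endocardial-like against endothelial cells, with 1 lower in arterial-like against venous-like cells. With the parent mesenchymal cluster undivided, 0 PDGF genes were lower in mesenchymal-like against endothelial cells (1 otherwise), and at clustering resolution 1 and 1.5, 2 (4 otherwise) were higher in mesenchymal-like against blood cells. Arterial-like against venous-like calls numbered 480 with DESeq2 and 435 to 706 leaving out 1 library (737 otherwise).

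Between genotypes, calls in endothelial cells were 3 with DESeq2, 97 with no filter (1 PDGF gene lower) and 3 with a replicate block. In endocardial-like cells they were 6, 83 and 45, and 7 to 51 leaving out 1 library (0 to 1 PDGF gene higher). In mesenchymal-like cells they were 39 with no filter, 4 with the block, and 4 to 45 leaving out 1 library (0 to 1 PDGF gene lower). In blood they were 104, 460 and 176, with 15 to 61 leaving out 1 library and 6 at the other resolution. The labels name no shared batch and only 2 numbers recur, so the numbers were not taken to pair the libraries. Deviations of same-numbered libraries correlated at 0.38, 0.45, 0.21 and 0.39 in endothelial, endocardial-like, mesenchymal-like and blood cells, and the block changed no call of a PDGF gene. The pdgfrb split gave 0 to 1 calls leaving out 1 library.

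Shares at own depth in place of 1000 UMIs were 35.8% (pdgfbb) and 33.5% (pdgfba) in endothelial, 58.0% (pdgfra) and 55.9% (pdgfrb) in mesenchymal-like, and 23.2% (pdgfra) and 23.3% (pdgfrb) in endocardial-like cells. At 2000 UMIs they were 22.1% and 11.9% for pdgfbb and pdgfba in endothelial cells and 7.59% for pdgfra in endocardial-like cells.

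The signs that changed were all of genes not called. For pdgfbb in mesenchymal-like against blood cells they were 0.064 (RLE), 0.048 (DESeq2), 0.56 (other resolution), 0.0014 (no upper limit on genes), 0.051 (highest scrublet scores left out) and 3.36 (undivided cluster, adjusted p = 2.2e-05 in edgeR's test), and -0.78 to 0.23 leaving out 1 library. At the other resolution pdgfba was 0.040 in arterial-like against venous-like cells, and between genotypes pdgfaa (ENSDARG00000110069) was -0.082 in endothelial, pdgfra -0.35 and pdgfrb 0.14 in mesenchymal-like, and pdgfba 0.025 in blood cells. With no upper limit pdgfab was -0.019 in mesenchymal-like cells, and with DESeq2 the interactions of pdgfab and pdgfrb were -0.023 and -0.022. Leaving out 1 library gave -1.38 to 0.017 for pdgfba in mesenchymal-like against endothelial cells. Between genotypes it gave, in endothelial cells, -0.72 to 2.81 for pdgfaa (ENSDARG00000110069), -0.21 to 1.26 for pdgfab, -0.39 to 0.67 for pdgfba and -0.47 to 0.92 for pdgfbb. In endocardial-like cells it gave -0.69 to 1.86 for pdgfab, -0.79 to 0.84 for pdgfba, -1.13 to 0.51 for pdgfra and -0.054 to 1.83 for pdgfrb. In mesenchymal-like cells it gave -0.99 to 2.47 for pdgfab, -0.10 to 0.69 for pdgfra and -2.13 to 0.45 for pdgfrb, and in blood -0.36 to 0.14 for pdgfba and -0.51 to 0.54 for pdgfbb.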

Other observations

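Outside the vessel, mesenchymal and blood classes, pdgfba was also found in a small epithelial-like cluster. This cluster was led by genes that include ascl1a, tph1b and scgn and held 47 cells, 39 of them from flt1-/- replicate 1. Its level was 83.6 CPM in flt1-/- replicate 1 (23 UMIs) and 153 CPM over all its cells (53 UMIs), with 6 UMIs in the 3 cells of flt1-/- replicate 2, and 10 and 14 UMIs in the 3 and 2 cells of the WT libraries. All epithelial-like cells of flt1-/- replicate 1 had 60.6 CPM. The cartilage-led cells that the marker lists left unnamed also held pdgfba, with 50 UMIs and 271 CPM in the 13 cells of flt1-/- replicate 1 in the subcluster led by matn3a and col9a1b, where pdgfra, pdgfrb and pdgfbb had no UMI. In the neighbouring subcluster led by matn1, the 12 cells of flt1-/- replicate 1 had 18 UMIs of pdgfrb (92.8 CPM), 7 of pdgfra (36.1 CPM) and none of pdgfba. These clusters came mostly from 1 library, and no comparison was made.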
